A study of Mus musculus with 18 samples.

Results

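Chromatin accessibility was examined around 10 genes that encode enzymes of itaconate synthesis (Acod1), arginine use (among them Nos2 and Ass1), tryptophan breakdown (Ido1) and glycolysis (Hk2, Hk3, Pfkfb3 and Ldha). For each gene a window was drawn that joined the gene body with 50000 bp on both sides of its most upstream start site in the GENCODE M21 annotation of the mm10 mouse genome. Every entry of 3 deposited lists that fell in a window was kept. The lists gave reference peaks, which are stretches of accessible DNA, summits, which are the points of highest signal inside a peak, and extended regions, in which neighbouring peaks are joined together with their flanks. The windows contained 130 of 82391 reference peaks, 143 of 84660 summits and 80 of 59617 extended regions, the latter being 0.134% of the list.

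The cells were bone marrow-derived macrophages (BMDMs) grown from wild type mice, and male C57/BL6 animals are named in the study's methods. In every group the BMDMs were first kept with DMSO, the vehicle, for 1 h. Untreated cells got nothing more, and the others were exposed to 10 ng/mL of either LPS, a bacterial ligand of TLR4, or IL-4, a cytokine, for 30 min, 1 h, 2 h or 4 h. The 18 ATAC-seq libraries formed 9 groups with 2 libraries each, and the labels do not say whether the libraries of a group came from separate cultures. The lists had been pooled over all libraries and had no value per library, so that LPS, IL-4 and the time points could not be compared for these genes, no error between replicates could be given and the depth is unknown. All values below describe a single catalog of sites, in which a site open in few cells and a site weakly open in many cells cannot be told apart.

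The enzymes are linked by the metabolic switch that macrophages undergo upon activation. In cells exposed to LPS, glucose is diverted to lactate, citrate is turned into itaconate through cis-aconitate and arginine is oxidised to nitric oxide. Tryptophan is broken down to kynurenine by a further enzyme of the activated state. Expression of these enzymes is known to be set by factors such as NF-kB, IRF and STAT proteins, C/EBPb and the hypoxia-inducible factor HIF-1, which bind promoters and distal cis-regulatory elements (CREs).

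The sequences on which the description below turns are shown first. For the 5 arginine, itaconate and glycolysis genes printed with a promoter, the 250 bases that precede a RefSeq start site are given, on assembly GRCm38.p6 (whose coordinates are those of mm10) and on the strand of the gene. Pfkfb3 and Ldha have 2 entries each, of which 1 is shown, at an internal start site and with more matches than the other. The other Pfkfb3 entry had a HIF core match 60 bp and an SP/KLF match 178 bp upstream of its start. For Acod1 and Nos2, the 201 bases around the best scored own summit away from their start sites are given as well, as examples of distal sites of an itaconate and an arginine gene. Capitals mark every match to the 12 consensus motifs described further below.
Acod1 promoter, chr14:103046762-103047011, plus strand: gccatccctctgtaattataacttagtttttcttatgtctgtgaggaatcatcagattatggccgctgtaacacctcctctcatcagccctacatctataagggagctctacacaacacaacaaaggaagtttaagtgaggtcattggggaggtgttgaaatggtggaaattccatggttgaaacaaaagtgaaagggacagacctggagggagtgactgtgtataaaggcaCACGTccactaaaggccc
Acod1 upstream summit, chr14:103033533-103033733, plus strand: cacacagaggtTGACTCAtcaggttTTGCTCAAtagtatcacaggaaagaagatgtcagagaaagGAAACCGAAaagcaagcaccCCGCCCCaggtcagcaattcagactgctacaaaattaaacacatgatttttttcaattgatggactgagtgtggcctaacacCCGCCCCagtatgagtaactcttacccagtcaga
Nos2 upstream summit, chr11:78916504-78916704, plus strand: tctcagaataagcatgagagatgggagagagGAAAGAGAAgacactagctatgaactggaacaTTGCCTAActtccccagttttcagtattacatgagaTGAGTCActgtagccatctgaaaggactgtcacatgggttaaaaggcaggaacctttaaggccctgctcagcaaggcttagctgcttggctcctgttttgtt
Ass1 promoter, chr2:31470020-31470269, plus strand: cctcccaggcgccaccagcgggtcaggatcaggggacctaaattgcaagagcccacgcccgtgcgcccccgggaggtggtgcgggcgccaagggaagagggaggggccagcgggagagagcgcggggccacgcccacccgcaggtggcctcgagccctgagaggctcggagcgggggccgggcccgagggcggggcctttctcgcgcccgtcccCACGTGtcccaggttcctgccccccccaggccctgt
Hk2 promoter, chr6:82774455-82774704, minus strand: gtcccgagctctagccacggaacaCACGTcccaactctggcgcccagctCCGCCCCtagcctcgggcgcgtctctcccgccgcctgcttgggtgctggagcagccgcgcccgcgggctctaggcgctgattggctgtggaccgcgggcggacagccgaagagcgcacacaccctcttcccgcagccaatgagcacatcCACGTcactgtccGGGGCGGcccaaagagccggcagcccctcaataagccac
Pfkfb3 internal promoter, chr2:11502091-11502340, minus strand: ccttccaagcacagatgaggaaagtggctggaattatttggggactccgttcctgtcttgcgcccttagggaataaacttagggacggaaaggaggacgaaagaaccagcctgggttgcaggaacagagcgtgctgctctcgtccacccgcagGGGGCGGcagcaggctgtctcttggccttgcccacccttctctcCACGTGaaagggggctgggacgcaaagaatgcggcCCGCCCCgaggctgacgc
Ldha promoter, chr7:46845554-46845803, plus strand: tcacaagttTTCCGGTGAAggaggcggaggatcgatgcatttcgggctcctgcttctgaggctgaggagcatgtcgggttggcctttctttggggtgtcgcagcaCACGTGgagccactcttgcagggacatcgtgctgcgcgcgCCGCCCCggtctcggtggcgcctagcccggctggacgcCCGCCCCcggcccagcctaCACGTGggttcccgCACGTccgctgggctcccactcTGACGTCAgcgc

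The number of accessible sites differed widely among the 10 genes. Acod1 had 15 extended regions in its window, Pfkfb3 had 13 and Hk2 had 12, whereas Ido1 had 1. The other genes lay between these, with 8 regions for Nos2, 7 for Ldha and 6 each for Ass1 and Hk3. When the count was limited to the 50000 bp around the start site, to make genes of different length comparable, the median over the 10 genes was 6.5 regions and over all 21938 protein-coding genes 4. At least as many regions as for Acod1 were found for 1.96% of protein-coding genes, and the same share was 7.87% for Hk2, 11.5% for Pfkfb3 (11 regions) and 27.1% for Nos2. Ass1 and Hk3 were close to the middle of the distribution, with 41.7% of genes having at least as many regions.

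**Figure D1:**
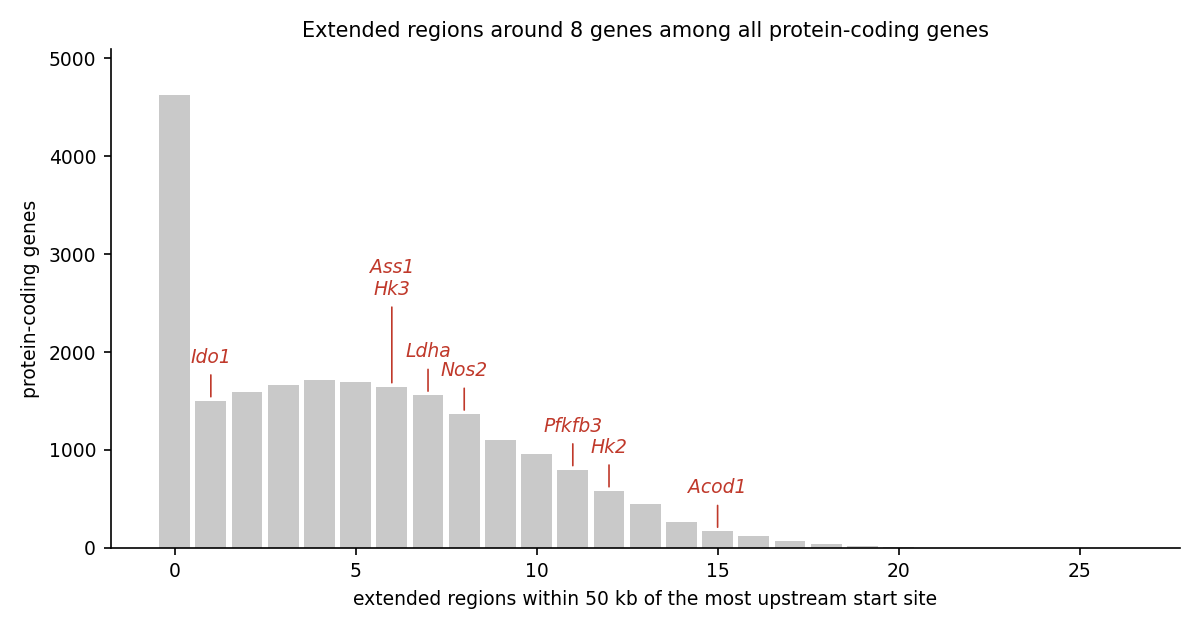
Histogram of the number of extended regions within 50 kb of the most upstream start site (x axis) over all protein-coding genes (y axis, number of genes), with 8 of the genes placed at their own count. Ido1 sits at 1 region and Acod1 at 15, while the others lie between 6 and 12.

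Summits were compared by their score, a value that the authors deposited with each summit and whose scale is not stated, so that it was used only to rank summits within the list. The median score of the 143 summits was 791 (interquartile range 481 to 1266, lowest 140, highest 1995), and that of all summits was 737 (interquartile range 486 to 1153). A score at or above the median of the list was found for 77 of 143 summits. Since 51 of the 143 summits belonged to Acod1, the median was also computed without this gene, which gave 796.5. The bases around each summit, over the length of a read (76 bp), occurred only once in the genome for 143 of 143 summits.

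A coding start site nearest to a summit belonged to the gene of the window for 105 of 143 summits, which are called its own below. All 13 summits in the Hk2 window were its own, as compared to 3 of 9 for Ass1 and 0 of 1 for Ido1. The remaining 38 lay nearer to a start site of another protein-coding gene, and nearness does not tell which gene a site acts on.

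**Figure D2:**
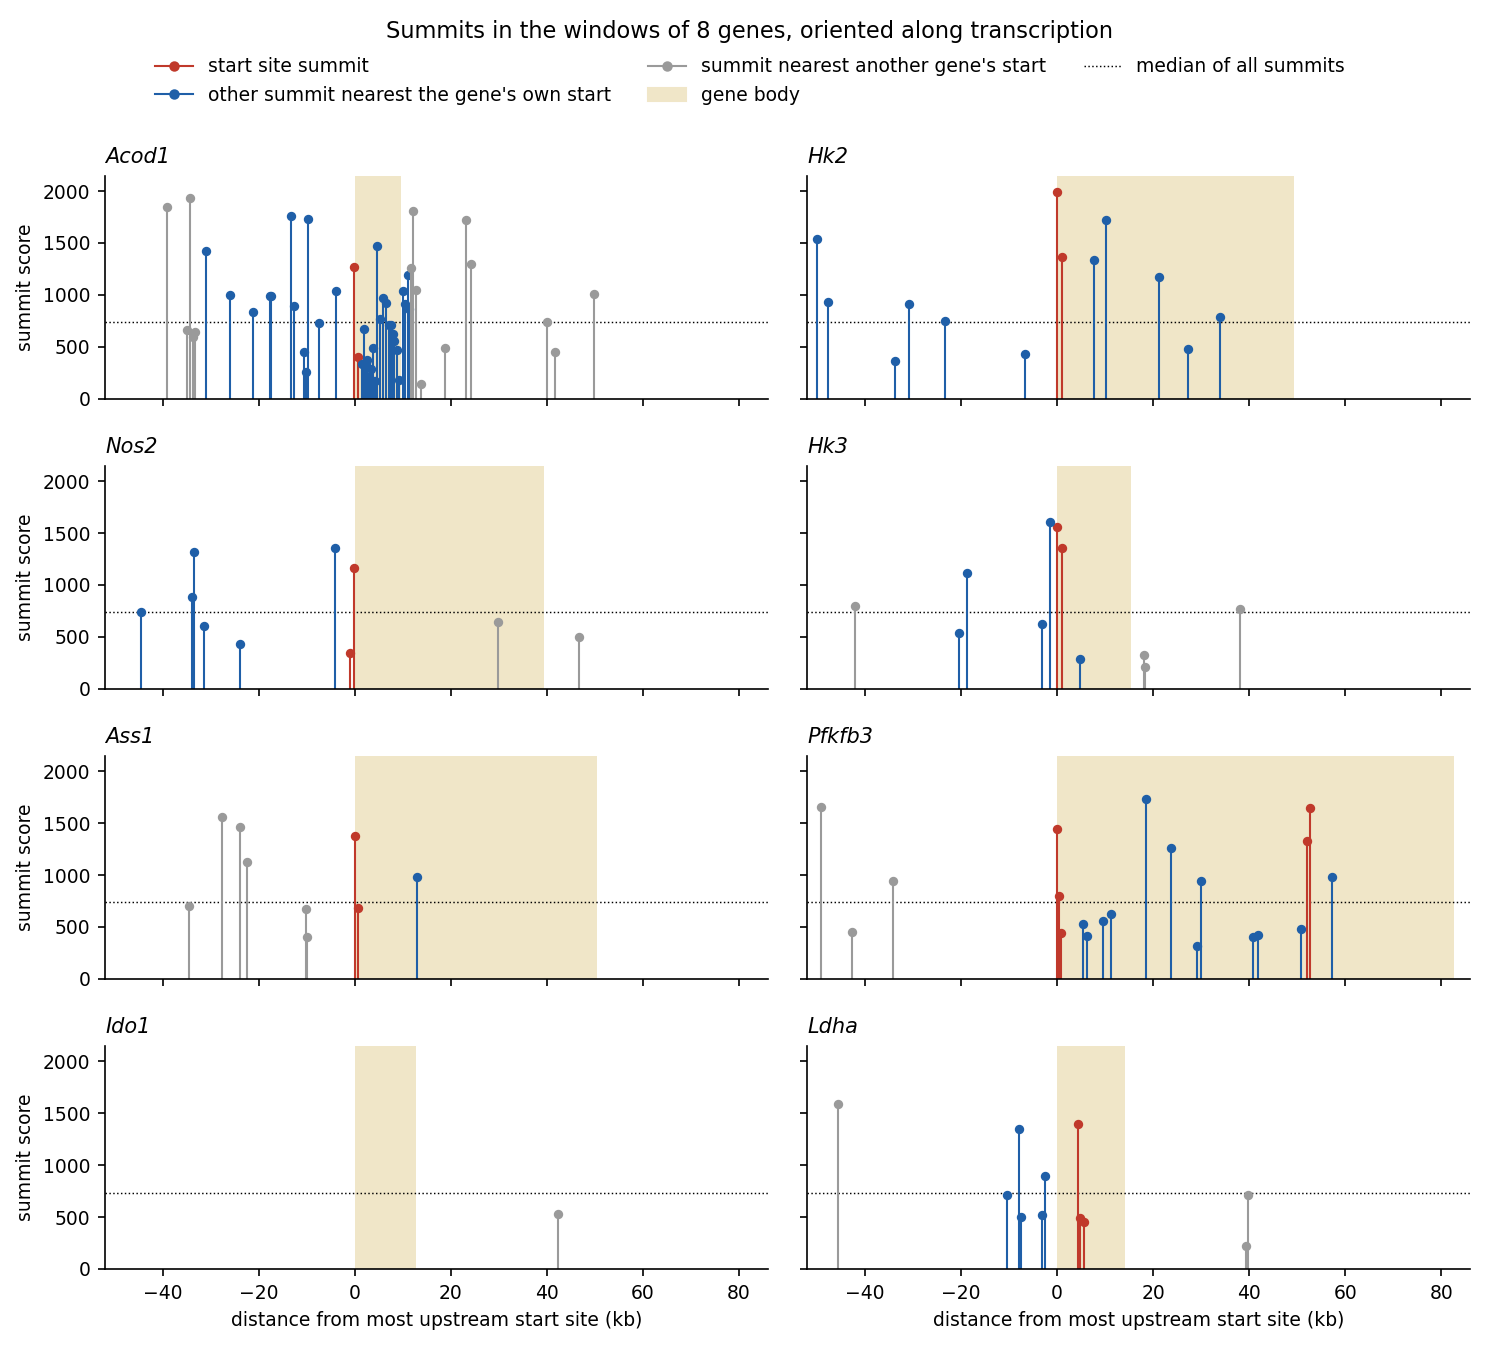
Position of each summit relative to the most upstream start site of the gene (x axis, kb, downstream to the right) and its score (y axis, scale not stated by the authors), with 1 panel for each of 8 genes. Summits are dense over the Acod1 gene body, lie mainly upstream for Nos2 and inside the gene for Pfkfb3, and a single summit is present for Ido1.

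A reference peak within 1000 bp of an annotated start site was present for 9 of the 10 genes, and for 56.5% of all protein-coding genes. Ido1 was the gene without such a peak. The best scored summit of these start site peaks was highest for Hk2 (1995), and its median was 1381 over the 9 genes and 1456 over the 12321 protein-coding genes with a start site summit. The sequence of the start sites differed between the genes as well. The ratio of observed to expected CpG dinucleotides within 500 bp of the start site with the best scored summit, an internal one for Pfkfb3 and Ldha, was 0.0731 for Acod1 and 0.17 for Nos2, values below which 4.68% and 18.4% of protein-coding genes fall. Hk2 and Ldha were at the other end, with ratios of 0.817 and 0.763, and Ass1 and Pfkfb3 had 0.565 and 0.634, near the median of all genes (0.571).

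The start sites were next compared with more distant sites. For 6 of the 9 genes that had both, the best scored own summit over 1000 bp away from the start sites scored higher than the best start site summit, which was the case for 32.1% of protein-coding genes with both. They included Acod1, Nos2, Hk3 and Pfkfb3. Among these, the difference was widest for Acod1, whose distal summit scored 488 higher, followed by Nos2 (193), Pfkfb3 (90) and Hk3 (50). The start site scored higher for Ass1 (by 402), Hk2 (by 274) and Ldha (by 49). A gene with many summits has more chances that a distal summit scores high, and the part of this in the counts was not tested.

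**Figure D3:**
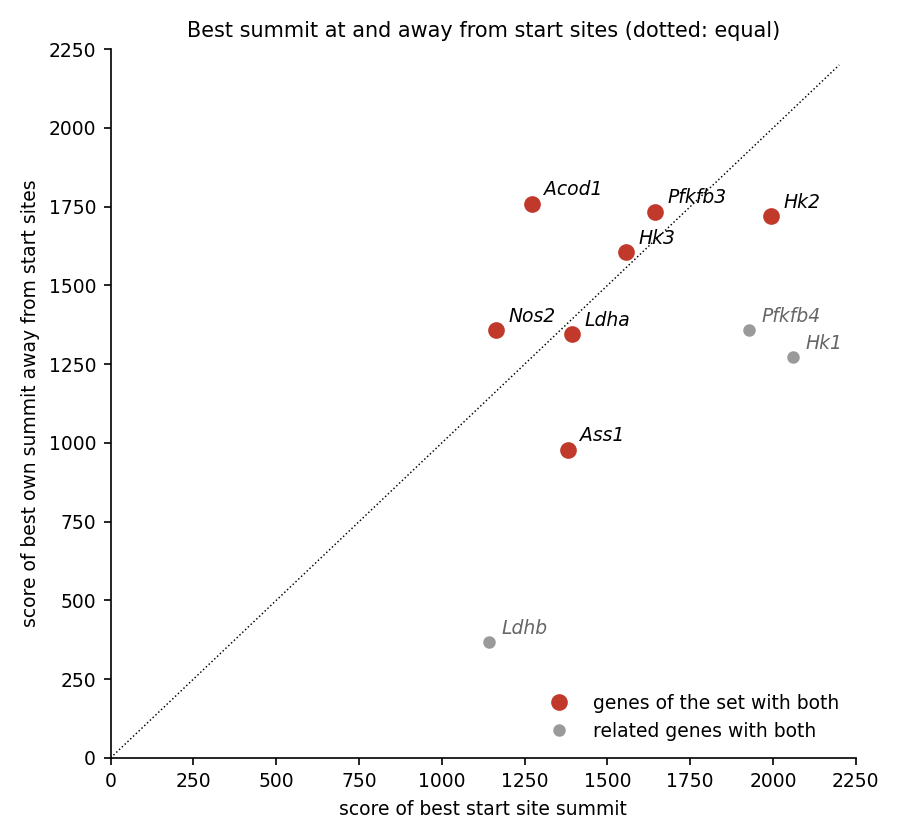
Score of the best start site summit (x axis) and of the best own summit over 1000 bp from the start sites (y axis) for 7 of the genes and for related genes that have both, with a dotted line of equality. Acod1 and Nos2 lie farthest above the line, and Ass1 lies farthest below it among the red points.

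Acod1 encodes the mitochondrial enzyme that decarboxylates cis-aconitate to itaconate. The gene (ENSMUSG00000022126, chr14:103046977-103056573, plus strand, 9597 bp) was covered by reference peaks over 74.8% of its length, a share reached or exceeded by 0.0684% of protein-coding genes. The share was 0 for Ido1 and 5.10% for Pfkfb3, the next highest of the 10 genes, and the median over all protein-coding genes was 0.871%. A total of 19 summits lay in the gene body, 18 of them over 1000 bp from the start site. A summit of the latter kind was present in 7 of the 10 genes (Ido1 and Ldha were among those without) and in 40.2% of all protein-coding genes, a count that also depends on gene length.

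The extended region over Acod1 started 962 bp before the start site and ended 4967 bp past the gene, and it was the fifth widest of the list at 15526 bp (rank 5 of 59617). Its 18 reference peaks covered 64.9% of it, with a median gap of 208 bp and a largest gap of 697 bp, and 2 pairs of peaks touched each other. Scores of its 28 summits ranged from 140 to 1812 with a median of 690.5, and 12 of them reached the median of the list. The region was thus dense in summits, most of which scored below that median.

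Along the gene, the start site summit scored 1272 and lay 52 bp upstream of the start site. The 8 summits between 663 bp and 3872 bp downstream scored from 204 to 675, all below the median of the list. The highest summit inside the gene, with a score of 1468, lay 4588 bp downstream in an intron. The widest peak of the list (2855 bp, chr14:103052691-103055545) came after it, with 6 summits that scored 968, 923, 706, 706, 623 and 554 in the direction of transcription. The last 3 of these lay in coding exon sequence, and the summits in the non-coding part of the last exon scored 467 and 175.

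Beyond the gene the scores were higher again, up to 1812 at 12187 bp downstream of the start site. Upstream of Acod1, own summits of high score lay at 13344 bp (score 1760, peak chr14:103033382-103033872), 9743 bp (1734) and 30871 bp (1418) from the start site. The best scored summit of the whole window (1929), which exceeded 97.2% of all summits, lay 34226 bp upstream and 30114 bp from the start site of Kctd12, the nearest one.

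**Figure D4:**
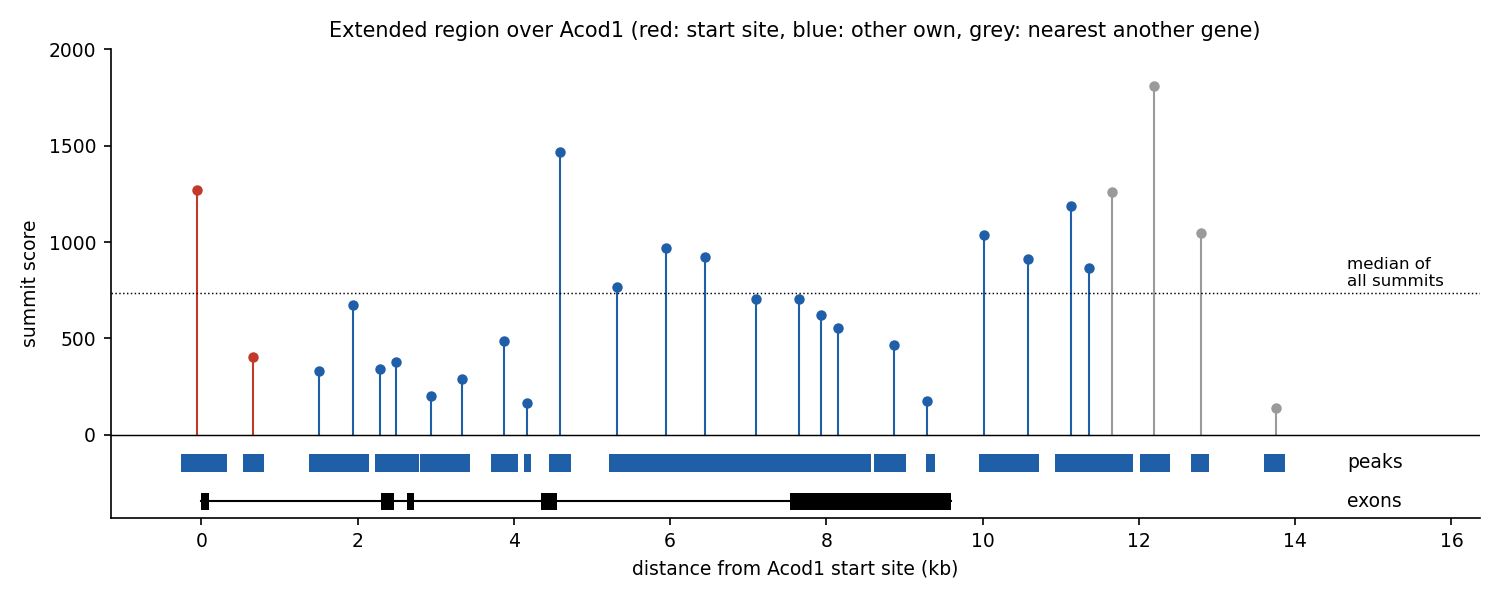
Summits (vertical lines, y axis: score), reference peaks (blue bars) and exons (black bars) over the extended region at Acod1, with the distance from the start site on the x axis (kb). The scores are low over the first introns, rise to 1468 at 4588 bp, decline along the last exon and reach 1812 beyond the gene.

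The printed Acod1 sequences differed in the motifs they held. The promoter had a single match, to the HIF core ACGTG, 18 bp upstream of the RefSeq start site. The summit 13344 bp upstream had matches to AP-1, C/EBP and IRF/ISRE within 89 bp of its centre, as well as to SP/KLF. Of the 51 summits in the window, 6 had a C/EBP match, 6 a HIF core match, 5 an AP-1 match, 5 a RUNX match, 4 an IRF/ISRE match and 1 an NF-kB match. These correspond to 11.8% for C/EBP (11.4% of all summits), 11.8% for the HIF core (12.9%), 9.80% for AP-1 (15.9%), 9.80% for RUNX (7.91%), 7.84% for IRF/ISRE (8.12%) and 1.96% for NF-kB (5.55%).

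Nos2 encodes the inducible nitric oxide synthase, which makes nitric oxide and citrulline from arginine. In its window (gene ENSMUSG00000020826, chr11:78920787-78960254, plus strand) the accessible sites lay upstream, with 8 of 10 summits before the start site and a single one (score 644) inside the gene of 39468 bp. The start site summit scored 1164 and lay 89 bp upstream, and a weaker one with a score of 341 lay 918 bp upstream. The highest score, 1357, was found 4183 bp upstream (peak chr11:78916458-78916745), and the next highest, 1320, at 33566 bp upstream, where it had a neighbour of 889 in the same extended region.

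NF-kB matches were concentrated around Nos2 by count. They were present at 4 of its 10 summits, namely those 89 bp, 918 bp, 31469 bp and 33566 bp upstream, and at 8 of the 143 summits in all. IRF/ISRE matches were present at 4 summits of Nos2 and coincided with NF-kB at 3 of them. The printed summit 4183 bp upstream had no NF-kB match and had IRF/ISRE, C/EBP and AP-1 matches, the latter 1 bp from its centre. Of all summits of the list, 5.55% had an NF-kB match (4702 of 84660, 95% Wilson interval 5.40% to 5.71%) and 8.12% an IRF/ISRE match.

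Ass1 encodes argininosuccinate synthase, which starts the recycling of citrulline to arginine and so can feed Nos2. The start site was accessible, with a summit of 1381 located 35 bp upstream and another of 685 located 696 bp downstream (gene ENSMUSG00000076441, chr2:31470207-31520672, plus strand). A single further own summit was found, in an intron 12922 bp downstream, with a score of 979 and a CTCF match. The other 6 summits of the window lay upstream inside Hmcn2 and were nearest to its start sites, including the best scored of the window (1556, at 27539 bp). The printed promoter had an E-box, CACGTG, 36 bp upstream of the RefSeq start site.

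Ido1 encodes indoleamine dioxygenase, which opens the indole ring of tryptophan and which is known as an interferon-induced gene. No reference peak lay within 1000 bp of its start sites or inside the gene (ENSMUSG00000031551, chr8:24584136-24597009, minus strand). The sole summit in the window scored 534, more than 29.7% of all summits, and lay 42330 bp downstream and 82 bp from a start site of the adjacent paralogue Ido2. No other listed summit was found between chr8:23257139 and chr8:24715354, a span of 1458215 bp. Listed summits carry numbers that run along each chromosome, and of the 12 numbers that fall in this span 11 are not listed, while 32.1% of all numbers up to the highest are listed. Most numbers were also not listed around genes with more summits, such as Ass1 (32 of 39) and Nos2 (27 of 36). The list had been filtered by the authors, and what the unlisted numbers stand for is not stated. Whether Ido1 was expressed in these cells was not analysed here.

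Hk2 encodes an inducible hexokinase, the enzyme that traps glucose in the cell by phosphorylation. It had the highest scored summit of the 10 windows, 1995, located 99 bp upstream of the start site (gene ENSMUSG00000000628, chr6:82725025-82774454, minus strand, peak chr6:82774301-82774728). A summit of 1369 lay 1036 bp downstream and 55 bp from another annotated start site. The gene body held summits of 1332 at 7723 bp, 1721 at 10098 bp, 1176 at 21209 bp, 476 at 27235 bp and 791 at 34020 bp downstream. Upstream, 6 summits lay between 6741 bp and 49933 bp and scored from 367 to 1543, the highest being the farthest. AP-1 and HIF core matches were each present at 4 of the 13 summits (15.9% and 12.9% of all summits).

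Hk3, the hexokinase expressed mainly in myeloid cells, had its accessible sites close together. A single extended region of 5781 bp held 4 summits, with scores of 1357 at 1094 bp and 1556 at 18 bp downstream and of 1606 at 1508 bp and 623 at 3037 bp upstream of the start site (gene ENSMUSG00000025877, chr13:55005985-55021385, minus strand). An intronic summit 4691 bp downstream scored only 290. Farther upstream, in introns of Uimc1, own summits scored 1117 at 18848 bp and 534 at 20483 bp. PU.1/ETS matches were present at 2 of the 11 summits (9.08% of all summits), one of them nearest to Unc5a, and STAT6-type matches at 2 (6.81%).

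Pfkfb3 encodes an inducible kinase and phosphatase whose fructose bisphosphate product activates phosphofructokinase, the committed step of glycolysis. Accessible start sites were found at both ends of a stretch of intronic sequence (gene ENSMUSG00000026773, chr2:11471433-11554077, minus strand, 82645 bp). At the upstream cluster the summits scored 1443 at 88 bp, 802 at 368 bp and 439 at 849 bp downstream of the most upstream start site. At the internal cluster they scored 1332 at 51963 bp and 1644 at 52639 bp. Between the clusters and past the internal one, 12 further summits lay in introns, with scores of 315 to 1734, the highest at 18450 bp. HIF core matches were present at 7 of the 20 summits (12.9% of all summits), one of which lay at a start site of Rbm17, and E-boxes at 4 (4.80%), among them the summit at the internal start site, the sequence of which is printed above, and the intronic summit at 18450 bp.

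Ldha encodes the A subunit of lactate dehydrogenase, which turns pyruvate into lactate. Its most upstream annotated start site had no peak within 1000 bp (gene ENSMUSG00000063229, chr7:46841475-46855627, plus strand). The main accessible start site was internal, with a summit of 1394 at 4300 bp downstream, 64 bp from an annotated start, and weaker ones of 495 and 448 at 4871 bp and 5601 bp. Own summits upstream scored 900 at 2474 bp, 524 at 3155 bp, 505 at 7414 bp, 1345 at 8014 bp and 716 at 10516 bp. The best scored summit in the window (1594) lay 45716 bp upstream, 49 bp from a start site of Hps5.

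The printed Ldha promoter held the most matches among the printed promoters, whereas the other RefSeq entry of Ldha (chr7:46846832-46847081) had none to the motifs described. E-boxes lay 145 bp and 48 bp upstream of the RefSeq start site, a further HIF core 34 bp upstream, a CRE 12 bp upstream and SP/KLF matches 105 bp and 67 bp upstream. A STAT6-type palindrome lay 241 bp upstream.

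Related enzymes provided a comparison within the same reactions. A start site peak was present for 8 of 12 relatives (66.7%) against 9 of the 10 genes. Among the nitric oxide synthases, the neuronal Nos1 and the endothelial Nos3 had none. Tdo2, the other tryptophan dioxygenase, and the testis lactate dehydrogenase Ldhc also had none, and Ido2 had the summit of 534 described above. The ubiquitous hexokinase Hk1 had the highest start site score of the relatives, 2061, slightly above Hk2, and Hkdc1 had 593. Of the other Pfkfb genes, Pfkfb4 was highest with 1929, above the 1644 of Pfkfb3, followed by Pfkfb2 with 1117 and Pfkfb1 with 1036. Ldhb, the B subunit, had 1141 against 1394 for Ldha.

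For the wider pathways, a start site peak was found for 13 of 13 genes of the citrate cycle and its links to itaconate and for 14 of 18 genes of glycolysis (77.8%), as compared to 56.5% of all protein-coding genes. It was also found for 13 of 16 genes of arginine and polyamine metabolism (81.2%, not for Otc, Agmat and Ddah1) and for 6 of 7 genes of tryptophan and kynurenine metabolism (85.7%, not for Kmo). The median best start site score was 1942 for the citrate cycle, 1664 for glycolysis, 1518 for arginine and polyamines and 1278 for tryptophan and kynurenine, against 1456 over all protein-coding genes with a start site summit. These single genes are named after their values were seen. As a check of the cell type, 8 of 8 macrophage markers and 2 of 8 markers of other cells, Pax5 and Gfap, had a start site peak.

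Motif content was determined within 100 bp of each summit for consensus sequences on both strands, of which 12 are described: PU.1/ETS (GAGGAAGT), AP-1 (TGACTCA), NF-kB, C/EBP (TTGCNNAA), IRF/ISRE (GAAANNGAA), STAT6 type (TTCNNNNGAA), RUNX (TGTGGTT), HIF core (ACGTG), E-box (CACGTG, which contains the HIF core on both strands), CRE (TGACGTCA), SP/KLF (GGGGCGG) and CTCF. A match says only that the letters are present. At least 1 of PU.1/ETS, AP-1, NF-kB and C/EBP, factors that shape macrophage enhancers, was matched at 43 of 143 summits (30.1%, 95% Wilson interval 23.2% to 38%) and at 36.8% of all summits. Over 1000 bp from any start site the share was 34 of 109 (31.2%, interval 23.3% to 40.4%), and that of all such summits, 42.2%, lay above this interval. Acod1 supplied 51 of the 143 summits. Without it the share at any distance was 31 of 92 (33.7%, interval 24.9% to 43.8%). The 36.8% of all summits lay inside that interval. The share over 1000 bp from start sites was not computed without Acod1. AP-1 was matched at 11.9% of the 143 summits and at 15.9% of all, PU.1/ETS at 6.29% and 9.08%, and C/EBP at 11.2% and 11.4%. For AP-1 and C/EBP the value of all summits lay inside the interval of the 143 (7.56% to 18.2% and 7.01% to 17.4%), as it did for PU.1/ETS (3.35% to 11.5%). All intervals of motif shares give counting error only and treat summits as independent. Many summits lie close together in the same window, so the intervals can be too narrow, and they are not tests.

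The HIF core was the motif whose share differed most in percentage points among the 12. It was present at 30 of 143 summits (21%, interval 15.1% to 28.4%) and at 12.9% of all summits. Near start sites of any gene the shares were 12 of 34 (35.3%, interval 21.5% to 52.1%) and 18.6%, and away from start sites 18 of 109 (16.5%, interval 10.7% to 24.6%) and 10.9%. Without the 51 summits of Acod1 the share was 26.1%. The windows of Hk2, Pfkfb3 and Ldha, which are known HIF-1 targets, held 44 of the 143 summits and 14 of the 30 with a match, of which 12 were own summits and the others lay at start sites of Hps5 and Rbm17. The match was not particular to these windows. It was present at 3 of 10 summits for Nos2 (30%, against 30.8% for Hk2 and 27.3% for Ldha), 2 of 9 for Ass1, 2 of 11 for Hk3 and 6 of 51 for Acod1. E-boxes, which always hold a HIF core, accounted for 12 of the 30 and were present at 8.39% of the 143 summits and 4.80% of all.

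In the promoters, taken as the 250 bases before a RefSeq start site, the HIF core was found in 7 of the 8 entries for the 6 genes with an entry (Acod1, Ass1, Hk2, Hk3, Pfkfb3 and Ldha, the last pair with 2 entries each). It was found in 16.6% of 32851 promoters of the same length. An E-box was present in 3 of the 8 (6.02% of all promoters), SP/KLF in 4 (21%), a STAT6-type site in 2 (5.85%) and a CRE in 1 (1.55%). NF-kB, AP-1, PU.1/ETS, C/EBP and IRF/ISRE were matched in 0 of the 8, with shares between 2.44% and 9.56% of all promoters. Hk2, Pfkfb3, Ldha and Ass1 have start sites rich in CpG as compared to Acod1, and the part of base composition in these shares was not tested.

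IRF/ISRE was matched at 19 of 143 summits (13.3%, interval 8.67% to 19.8%) and at 8.12% of all. Among summits nearest to the own start site the share was 16.2%. Over whole windows a match was present at 4 of 10 summits for Nos2, 4 of 20 for Pfkfb3 (3 of them own summits) and 4 of 51 for Acod1, the last being 7.84% and close to the share of all summits. Ido1 had 0. STAT6-type sites were matched at 7.69% of the 143 summits (interval 4.35% to 13.2%) and at 6.81% of all, which lay inside that interval.

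**Figure D5:**
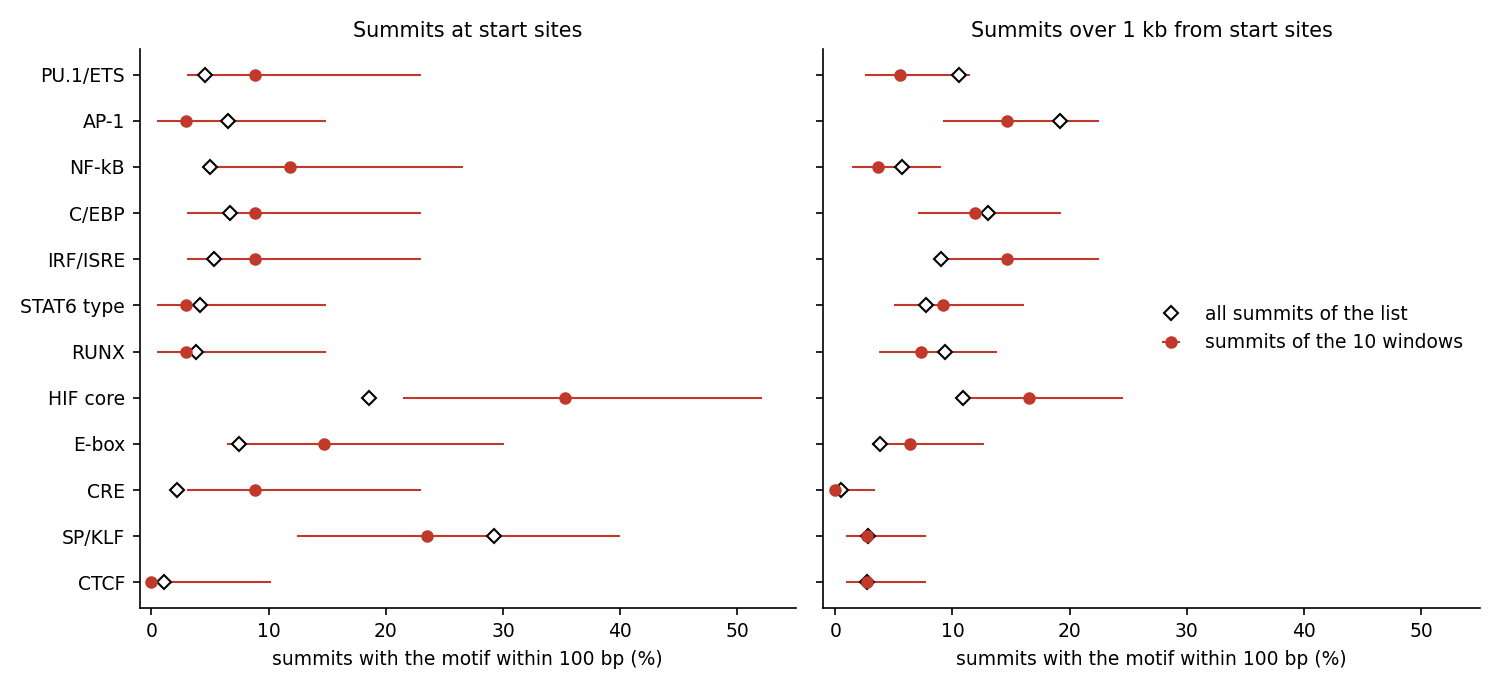
Share of summits with each motif within 100 bp (x axis, percent) for the summits of the 10 windows (red points, bars: 95% Wilson intervals, counting error only) and for all summits of the list (open diamonds), at start sites (left) and over 1 kb from them (right). The HIF core at start sites, 35.3% against 18.6%, lies outside the interval, as do the CRE at start sites (8.82% against 2.16%) and IRF/ISRE away from them (14.7% against 9.07%), whereas the other diamonds lie inside. The CRE share rests on 3 of 34 summits, among them a summit 460 bp from a start site of Hmcn2. For IRF/ISRE the lower end of the interval, 9.24%, is close to the share of all summits.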

How the data were processed

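Per the study's methods, ATAC-seq reads (76 bp, single-end) were cleaned with BBDuk and Trimmomatic, mapped to mm10 with ShortStack and filtered with SAMtools, and MACS2 called peaks and sub-peak summits. Only peaks that passed a strict q-value limit and whose area overlapped between the libraries of a group were retained, so that weak or variable sites are missing from the lists. The submitters' processing notes give the versions Trimmomatic 0.39, SAMtools 1.9 and MACS2 2.2.6. Duplicates were kept and no Tn5 shift is named, so that scores can include PCR copies and summits can lie beside the insertion maximum. The authors deposited positions of reference peaks, extended regions and summits and, for summits, a score whose scale is not stated. The lists pool 18 libraries, with 0 columns of other samples, and depth per library is unknown.

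Overlaps (at least 1 bp), scores, motif matches and CpG content were computed with Python 3.11.15 and numpy 2.4.6, Wilson intervals with scipy 1.17.1, and the overlap and motif searches were tested on simulated data. No statistical test was made. Start site peaks lay within 1000 bp of a GENCODE M21 start site. Alternatives were other windows, score limits and start site definitions. Named are the 10 genes, their enzymatic relatives and the genes nearest to the best summits, and pathway and marker lists are given by counts, with a few of their genes named after their values were seen. Some items are not reported here by name but remain in the totals. Genes and lists were chosen with earlier results of these data known. Promoter sequences are from RefSeq (GRCm38.p6), which had entries for 6 of the 10 genes.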

Additional observations from a re-analysis of the deposited data

How the results depend on the processing

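No paired analysis was possible because the lists have no column per library, and for the same reason no replicate could be left out. The counts moved with the width of the window and with the score limit. With 20000 bp on both sides, the 10 windows held 44 extended regions and 85 reference peaks, and with 100000 bp they held 125 and 194. Requiring a score of at least the median of the list left 54 extended regions and 71 reference peaks. The number of genes with a start site peak was 9 with limits of 500 and 2500 bp, and 8 when only the most upstream start site or a score of at least the median was required. The median summit score stayed between 748 and 979 under the alternatives run. The share of summits with at least 1 of PU.1/ETS, AP-1, NF-kB and C/EBP was 17.5% within 50 bp and 39.9% within 200 bp, against 25.9% and 45.9% of all summits. Leaving out Acod1, an alternative chosen after seeing the data, gave 65 extended regions, 90 reference peaks and a share of 33.7%. Wider windows hold more sequence, and the cause of these shifts was not tested. Depth and the filters on the list limit all statements of absence, such as that for Ido1, to this list.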
